A study of Bos taurus with 28 samples.

Results

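Protein folding genes were compared between the livers of ketotic and healthy dairy cows. The set held 63 genes, of 8073 with a single gene symbol on the array, and was chosen by symbol alone: the CCT chaperonin subunits with TCP1, the prefoldins with VBP1, the HSPA, HSPB, HSPE1 and HSPH1 heat shock proteins, the DNAJA, DNAJB and DNAJC co-chaperones, the BAG proteins and the FKBP prolyl isomerases, with HSPA5 left out. Of these, 59 had enough values to be tested. DNAJC14, DNAJC16, HSPB3 and FKBP7 did not, and HSPD1 and the HSP90 genes were not analysed here. A probe annotated HSPA1A lists several gene IDs and was not counted in the set.

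The ketotic group was 7 multiparous Holstein cows in early lactation whose feed was cut to 50% of intake until ketosis, with a start at day 4 after calving in the sample labels and at day 5 in the design text, and with day 14 as the latest end. The healthy group was 7 such cows without the restriction. An examination at day 4 after calving is recorded for both groups. Days after calving at liver sampling were not compared between the groups. Feed restriction and ketosis come together in the ketotic group and cannot be told apart. Liver RNA of each cow was set against a pool of RNA from cattle tissues on 2 arrays with the dyes exchanged, so a value is a log2 ratio of liver over that pool, and n is 7 cows a group. The direction of the ratio is likely rather than stated: it rests on the dyes in the titles and on liver genes, and the albumin gene ALB was above the pool on all 28 arrays.

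The CCT chaperonin is a barrel in the cytosol that closes around newly made proteins, actin and tubulin above all, and prefoldin hands them to it. HSP70 proteins bind exposed stretches of unfolded chains, J-domain proteins bring them their clients and switch on their ATPase, and BAG proteins and HSP110 help them let go. FKBPs turn peptide bonds at proline, a slow step of folding. Liver depends on this machinery for the large amount of protein it makes and secretes.

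Across the set, 9 of 59 tested genes were lower in ketotic liver, or 15.3%, against 11.1% of the 6958 genes tested on the whole array. None was higher, against 0.992% of all genes (limma, two-sided, Benjamini-Hochberg adjusted p under 0.05 over all genes). At an unadjusted p under 0.05, 18 of the 59 were lower, against 23.0% of all genes, and 1, HSPB2, was higher, against 4.57%. Both shares are of the same order, so the count by itself does not set the folding genes apart. The median log2 difference, ketotic minus healthy, was -0.26 over the 59 genes and -0.16 over all genes. Below 0 were 51 of the 59 differences, or 86.4%, against 65.1% of all genes. That tally moved with the centring: it was 42 of 59 (71.2%, against 55.0% of all genes) with arrays centred on the probes measured on every array, and 44 of 59 (74.6%, against 57.1%) over the tested probes. In 5 of the 59 (CCT7, PFDN1, PFDN2, FKBP3 and FKBP11) every ketotic cow lay below every healthy cow with a value, which held for 5.04% of all genes. The plot of the differences by family shows where the 9 genes lie: 6 of them are chaperonin or prefoldin subunits.

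**Figure D1:**
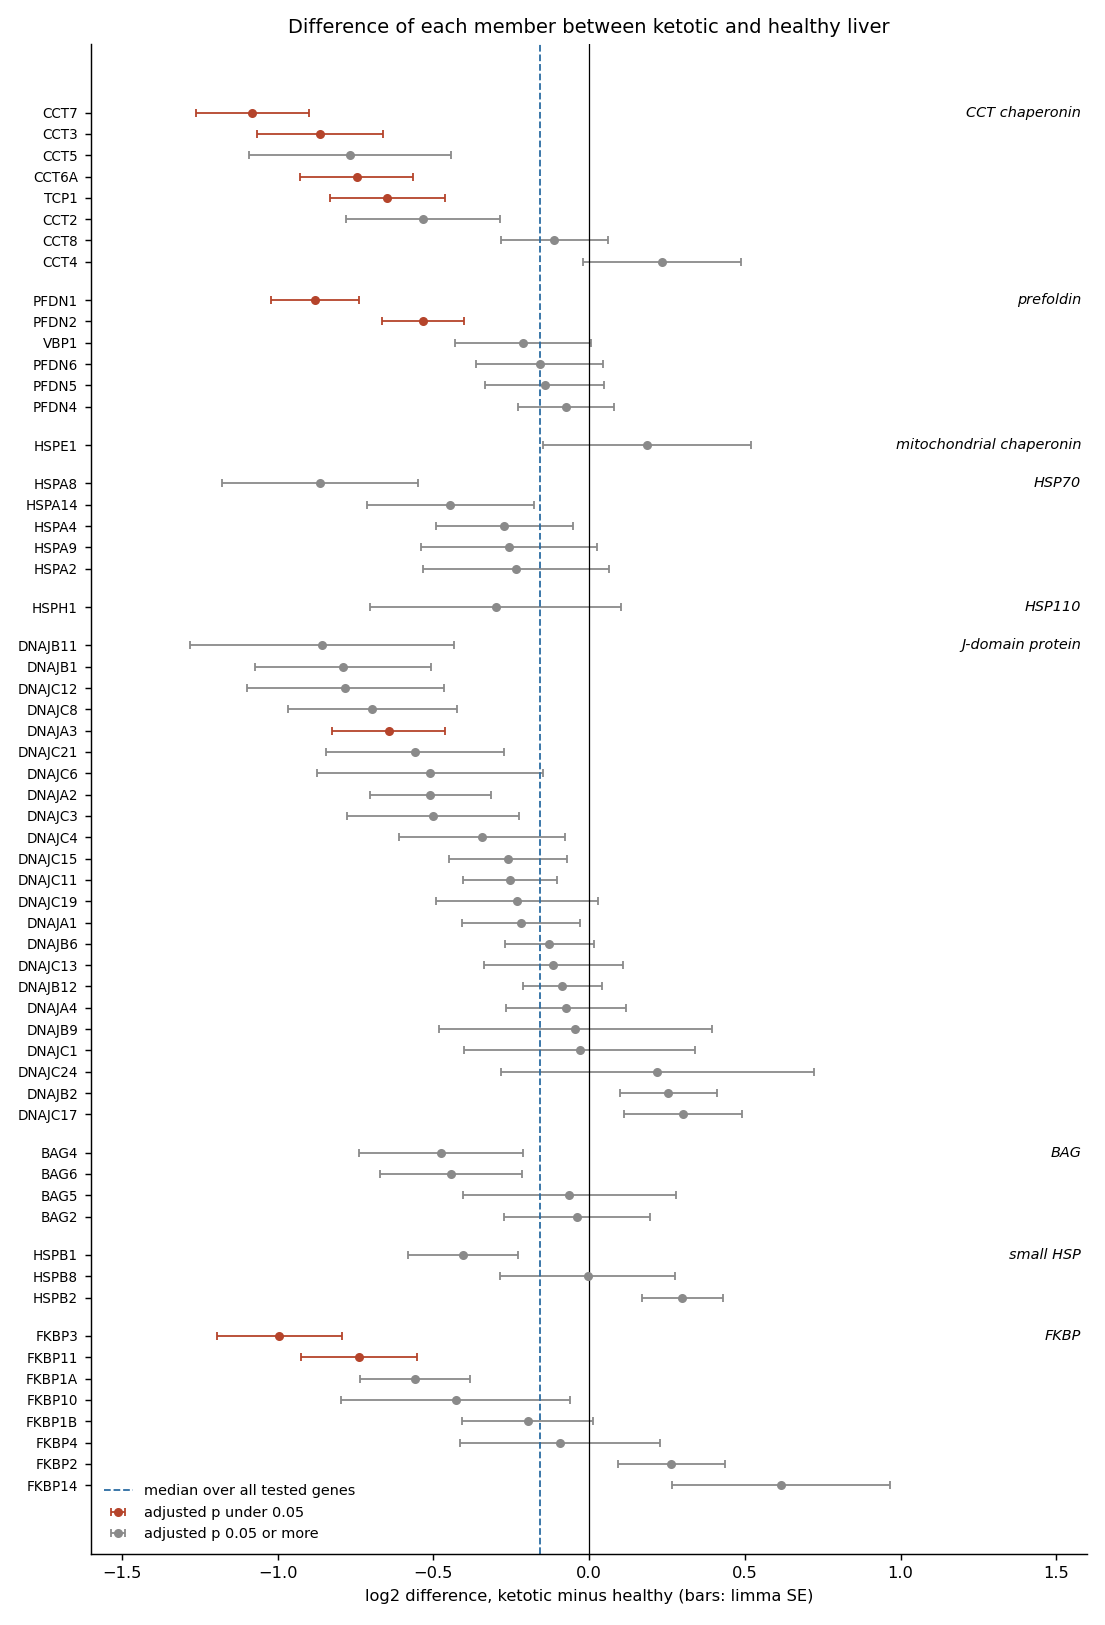
Log2 difference, ketotic minus healthy, of each of the 59 tested genes (points) with limma's standard error (bars), by family; red marks an adjusted p under 0.05, and the dashed line is the median over all tested genes, -0.16. The 9 red points all lie below 0, with 4 of them among the CCT subunits, and the HSP70 and BAG families hold none. Among all tested genes 11.1% were lower.

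Healthy cow 7 stood apart and bears on many values below. Its median correlation with the other healthy cows over probes was 0.434, against 0.876 to 0.917 for the other 13 cows within their own groups, and its own 2 arrays correlated at 0.610. The label fields of its Cy3 array list the channels in the other order from the remaining arrays. With the sign taken from the title, that array agreed in sign with its Cy5 partner, and ALB was at 7.61 on it. But ALB is only 1 of 16 hepatocyte markers tested. The median difference of that list, ketotic minus healthy, was 0.62 with this cow and 0.16 without it. In the fit without this cow, 14 of 59 genes were lower, against 17.0% of all genes, and the 9 were all among them. CCT2, DNAJC19, FKBP1A, HSPA14 and HSPA8 were added. Ketotic arrays also lost more spots: 16.5% ± 4.49 of spots had no value in ketotic cows, against 11.9% ± 2.80 in healthy cows (SD, n = 7 each). With that share as a covariate 3 genes were lower (CCT7, FKBP3 and PFDN1), against 1.97% of all genes. The log2 ratios were spread more widely in ketotic cows, with a median absolute deviation of 1.40 ± 0.185, than in healthy cows, with 1.12 ± 0.128. The part of empty spots and of spread in the results was not tested beyond these fits.

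Among the chaperonin subunits, 4 of 8 were lower in ketotic liver and none was higher, with a median log2 difference of -0.70. Of all genes, 11.1% were lower and 0.992% higher, with a median of -0.16. CCT7, the eta subunit of the ring, had log2 ratios with a lowest, median and highest of -2.59, -1.79 and -1.38 in ketotic cows, against -0.99, -0.74 and -0.46 in healthy cows. The groups did not overlap. CCT7 was 2.11-fold lower in ketotic liver, with a log2 difference of -1.08 (SE 0.181, limma adjusted p = 0.00339).

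CCT3, the gamma subunit, had -2.55, -2.05 and -1.45 in ketotic cows, against -1.61, -1.19 and -0.56 in healthy cows. The ranges met, with 5 of 7 ketotic cows below the lowest healthy cow. CCT3 differed by -0.86 (SE 0.202, limma adjusted p = 0.0147), and by -0.56 with arrays scaled to one spread, where the call was lost (adjusted p = 0.0943).

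CCT6A, a zeta subunit, had -1.78, -1.18 and -0.82 in ketotic cows, against -0.90, -0.45 and -0.13 in healthy cows. Here 6 of 7 ketotic cows lay below the lowest healthy cow, and the difference was -0.75 (SE 0.181, limma adjusted p = 0.0174). The call was lost with one spread (-0.54, adjusted p = 0.0557), with quantile normalisation (0.0520) and with Cy3 alone (0.104). TCP1, the alpha subunit for which the complex was first named, differed by -0.65 (SE 0.184, limma adjusted p = 0.0328). Its call was near the threshold: leaving out 1 cow ended it in 6 cases (ketotic cow 1 or 2, healthy cow 1, 2, 4 or 5), with adjusted p from 0.0504 to 0.0634, and with arrays scaled to one spread its difference was -0.30 (adjusted p = 0.343).

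The remaining subunits, named here after their values were seen so that the ring is complete, did not pass. CCT5 differed by -0.77 (SE 0.324, limma adjusted p = 0.136), and healthy cow 7, at 0.69, was its highest cow; without it the difference was -0.48 (adjusted p = 0.129). CCT2 differed by -0.53 (SE 0.248, limma adjusted p = 0.178) and by -0.67 without healthy cow 7 (adjusted p = 0.0498). CCT8 differed by -0.11 (SE 0.172) and CCT4 by 0.24 (SE 0.253). CCT4 thus leaned the other way, but healthy cow 7 was its lowest cow at -2.22, and without that cow the difference was 0.01.

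Taken as each cow's median over the 8 subunits, with each gene centred over cows, the ring averaged -0.326 ± 0.307 in ketotic cows and 0.262 ± 0.228 in healthy cows (SD, n = 7 each). The same median over all genes averaged -0.0892 ± 0.100 in ketotic cows and 0.0915 ± 0.0336 in healthy cows. Ketotic cow 6 was the exception of its group at 0.176, inside the healthy range of -0.0344 to 0.595. Over all genes it was also the highest ketotic cow, at 0.0146. Ketotic cow 5, with the lowest value at -0.792, was also lowest over all genes, at -0.277. It had the most empty spots of the 14 cows. How much of the ring's difference follows the shift over all genes was not tested. In bulk liver, fewer cells of a type and less RNA per cell cannot be told apart.

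Of the 6 prefoldin subunits, 2 were lower in ketotic liver, against 11.1% of all genes. PFDN1, a beta-type subunit, had -1.45, -1.15 and -0.83 in ketotic cows, against -0.50, -0.30 and 0.08 in healthy cows. The groups were well apart, and PFDN1 had the smallest adjusted p of the set: 1.84-fold lower, a log2 difference of -0.88 (SE 0.141, limma adjusted p = 0.00311).

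PFDN2, another beta-type subunit, had -0.79, -0.66 and -0.40 in ketotic cows, against -0.37, -0.10 and 0.30 in healthy cows. The groups lay close but did not overlap, and the difference was -0.53 (SE 0.131, limma adjusted p = 0.0186). The call was lost with one spread (adjusted p = 0.0647) and with quantile normalisation (0.0531). The rest, named after their values were seen to complete the complex, ranged from -0.21 for VBP1 to -0.07 for PFDN4, with none past the threshold. PFDN5 was read by 2 probes that disagreed, at 0.18 and -0.58 (limma adjusted p 0.748 and 0.0977).

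**Figure D2:**
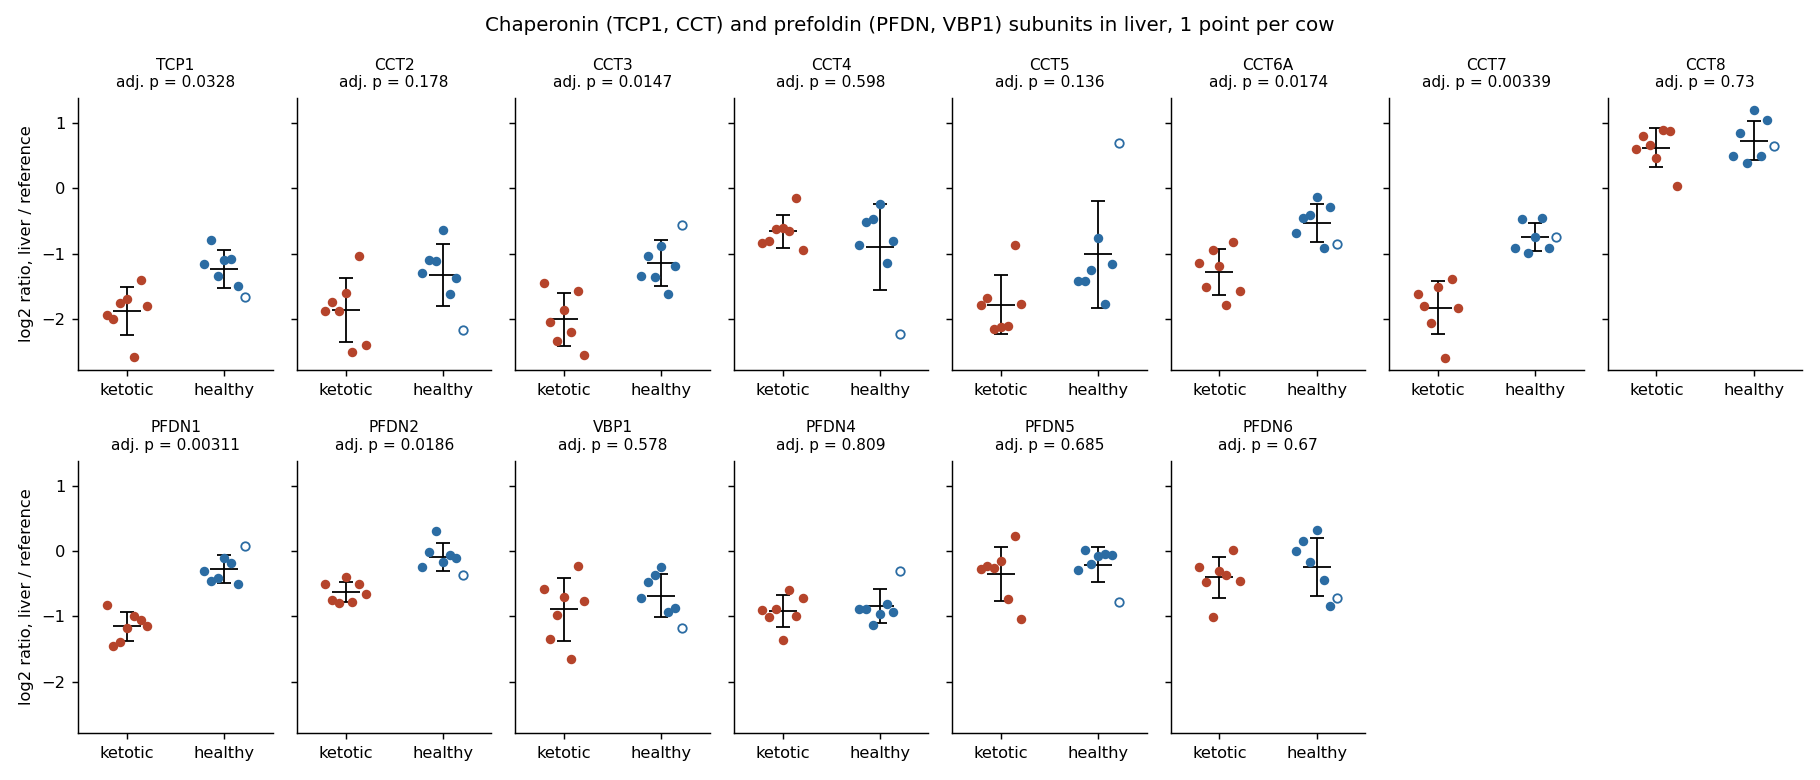
Log2 ratio of liver over the pooled reference for the 8 chaperonin and 6 prefoldin subunits, ketotic cows left and healthy cows right; each point is 1 cow, the open circle is healthy cow 7, and the bars are mean ± SD. CCT7, PFDN1 and PFDN2 show no overlap between the groups, and the open circle lies far from its group in CCT4 and CCT5.

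None of the 5 tested HSP70 genes passed, where 11.1% of all genes were lower and 0.992% higher. HSPA8, the constitutive HSP70 of the cytosol, had log2 ratios of -3.00, -2.13 and -1.29 in ketotic cows, against -2.36, -1.31 and -0.02 in healthy cows. The groups overlapped, in part through healthy cow 7, which was the lowest healthy cow. HSPA8 differed by -0.86 (SE 0.315, limma adjusted p = 0.0858), and by -1.04 without that cow (adjusted p = 0.0233). The others ranged from -0.45 for HSPA14, which works at the ribosome, to -0.23 for HSPA2. Without healthy cow 7, HSPA14 was at -0.65 (adjusted p = 0.0392), HSPA9, the mitochondrial member, at -0.51 and HSPA2 at -0.48, neither of these past the threshold. Genes of this family are alike in sequence, and how far a probe also reads its relatives was not tested.

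HSPH1, an HSP110 protein that exchanges the nucleotide of HSP70, had -1.29, -0.91 and -0.74 in ketotic cows, against -1.95, -0.99 and 1.30 in healthy cows. Healthy cows were far more spread, and healthy cow 7 was the highest. HSPH1 differed by -0.30 (SE 0.402, limma adjusted p = 0.683) and by 0.02 without that cow.

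Of the 23 tested J-domain proteins 1 was lower in ketotic liver, against 11.1% of all genes. DNAJA3, the J-domain partner of the mitochondrial HSP70, had -0.57, 0.05 and 0.37 in ketotic cows, against 0.24, 0.69 and 1.03 in the 6 healthy cows with a value. The ranges met, with 4 ketotic cows below the lowest healthy cow. DNAJA3 differed by -0.64 (SE 0.181, limma adjusted p = 0.0335), and leaving out 1 cow ended the call in 6 cases (ketotic cow 2 or 7, healthy cow 1, 3, 5 or 6), with adjusted p from 0.0565 to 0.0762.

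The other 22 ranged from -0.86 for DNAJB11, an endoplasmic reticulum protein, to 0.30 for DNAJC17. Single cows set both ends: DNAJB11 was at -0.44 without healthy cow 4, which stood at 2.13, and DNAJC17 at 0.16 without healthy cow 7. DNAJB1, named with its values after they were seen, a partner of HSP70 in the heat shock response, differed by -0.79 (SE 0.282, limma adjusted p = 0.0789). Its values were -1.59, -0.82 and 0.09 in ketotic cows, against -0.42, -0.04 and 0.63 in healthy cows, so the groups overlapped. The family's median of -0.25 was close to that of the whole set.

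None of the 4 BAG proteins passed, where 11.1% of all genes were lower and 0.992% higher. Their differences ran from -0.48 for BAG4 to -0.04 for BAG2. BAG6, which guards membrane proteins on their way to the endoplasmic reticulum, had -1.35, -0.73 and -0.61 in ketotic cows, against -0.91, -0.50 and 0.86 in healthy cows. It differed by -0.44 (SE 0.229, limma adjusted p = 0.226), and by -0.24 without healthy cow 7, its highest healthy cow. With 1 cow left out, the range ends ran from -0.57 to -0.26 for BAG4 and from -0.15 to 0.17 for BAG2.

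The 3 tested small heat shock proteins, which hold unfolded proteins without using ATP, did not pass either. For all genes the shares were 11.1% lower and 0.992% higher. HSPB2, known from muscle, had -0.76, -0.58 and -0.26 in ketotic cows, against -0.97, -0.82 and -0.48 in healthy cows. The groups overlapped, and the difference was 0.30 (SE 0.130, limma adjusted p = 0.145), the one gene of the set called higher, at 0.44, when arrays were scaled to one spread (adjusted p = 0.0419). HSPB1, the broadly expressed member, added after its values were seen, differed by -0.40 (SE 0.176, limma adjusted p = 0.149).

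HSPE1, the lid of the mitochondrial chaperonin, had -0.24, 1.09 and 1.74 in 6 ketotic cows, against 0.08, 0.78 and 1.43 in healthy cows. The groups overlapped throughout, and it differed by 0.19 (SE 0.333, limma adjusted p = 0.775).

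Of the 8 tested FKBPs 2 were lower in ketotic liver, against 11.1% of all genes. FKBP3, a nuclear member, had -2.47, -1.59 and -1.24 in ketotic cows, against -1.04, -0.63 and -0.33 in the 6 healthy cows with a value. The groups did not overlap. Healthy cow 7 was the cow without a value. FKBP3 was 1.99-fold lower, with a log2 difference of -0.99 (SE 0.20, limma adjusted p = 0.00831). The call was lost when 1 of a cow's 2 arrays was enough for a value (-0.75, adjusted p = 0.123). It was also lost with Cy3 alone (adjusted p = 0.0573). So it was with all arrays, a dye term and the cow as a random block (-0.83, adjusted p = 0.0965).

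FKBP11, of the endoplasmic reticulum, had -1.32, -0.47 and -0.28 in ketotic cows, against -0.14, 0.19 and 0.52 in the 6 healthy cows with a value. The groups did not overlap, and the difference was -0.74 (SE 0.186, limma adjusted p = 0.0216). FKBP1A, the small cytosolic member that binds the drug FK506, added after its values were seen, came just short of the threshold at -0.56 (SE 0.178, limma adjusted p = 0.0515); it passed under 10 of the other settings tried, among them the fit without healthy cow 7 (adjusted p = 0.0452). FKBP14, an endoplasmic reticulum enzyme of collagen folding, lay highest of the whole set at 0.62 (SE 0.350, limma adjusted p = 0.273).

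**Figure D3:**
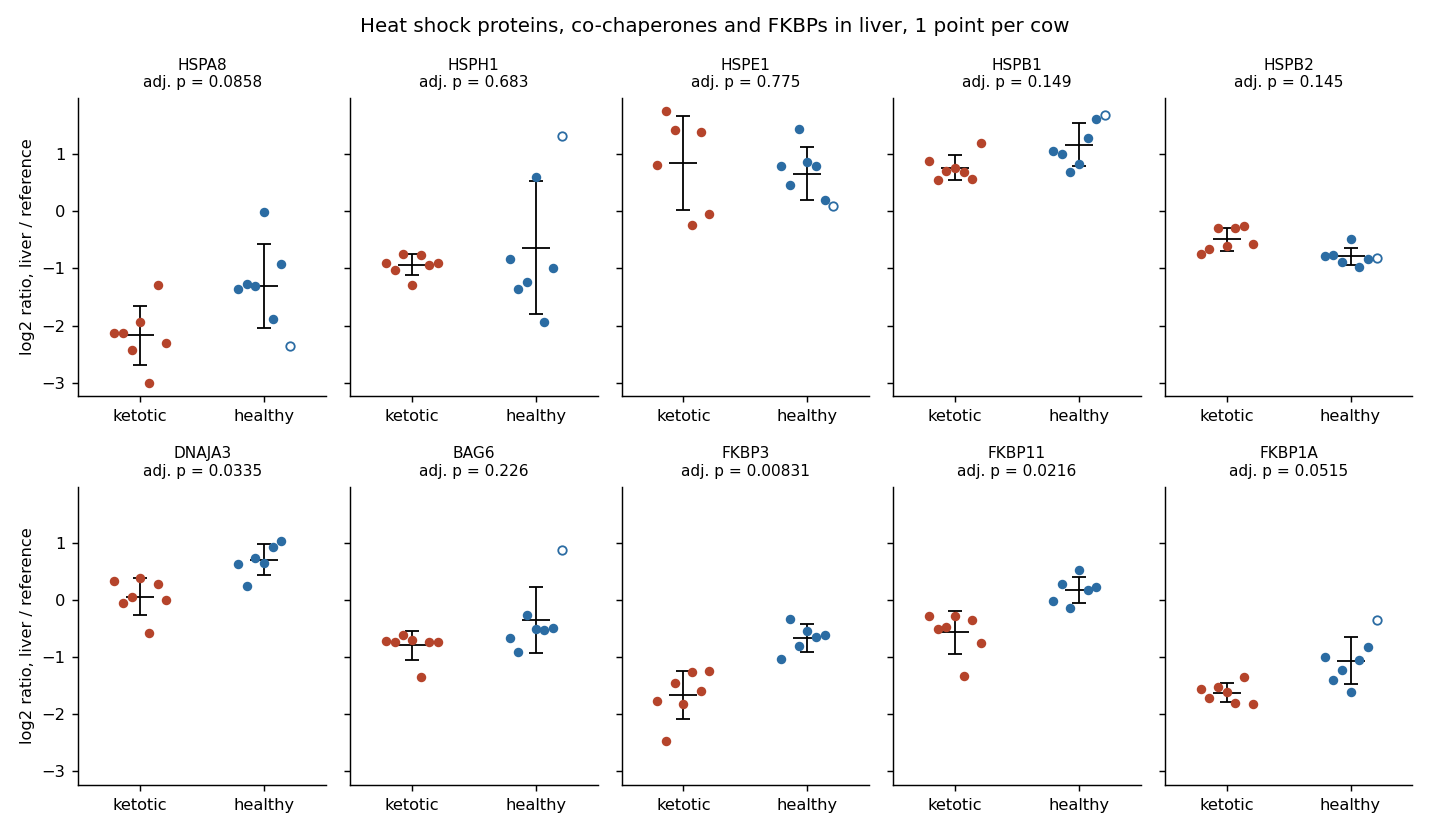
Log2 ratio of liver over the pooled reference for 10 heat shock proteins, co-chaperones and FKBPs, ketotic cows left and healthy cows right; each point is 1 cow, the open circle is healthy cow 7, and the bars are mean ± SD. FKBP3 and FKBP11 show no overlap between the groups, while the open circle widens the healthy group in HSPA8, HSPH1 and BAG6.

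Grouped by place in the cell, a grouping made after the values were seen and given as counts only, 6 of 14 chaperonin and prefoldin genes of the cytosol were lower, with a median log2 difference of -0.53. In the HSP70 system of the cytosol 0 of 15 were called by limma, although 14 of 15 differences were below 0 and their median was -0.27. In the endoplasmic reticulum 1 of 9 was lower (FKBP11), and in the mitochondrion 1 of 6 (DNAJA3). Among all genes 11.1% were lower, with a median log2 difference of -0.16. Without healthy cow 7 the counts were 7 of 14 in the first group, 2 of 15 in the HSP70 system (HSPA8 and HSPA14), 1 of 9 and 2 of 6. The share of all genes was then 17.0%. No difference between these groups was tested.

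The dye orientations were compared because each cow was measured in both. All 9 called genes were below 0 with liver in Cy3, from -1.22 to -0.64, and with liver in Cy5, from -0.94 to -0.43. The 9 were called on the mean of these same arrays, so their shared sign is not separate support. Of all 59 genes, 39 were below 0 in both, 6 above 0 in both and 14 differed in sign. Fitted alone, the Cy3 arrays called 8 of 62 genes lower, 7 of them among the 9, against 7.56% of all genes. The Cy5 arrays called 0 of 61, against 0.105% of all genes, where 8 of 7633 genes were lower. The median standard error over genes was 0.263 with Cy3 and 0.307 with Cy5, against 0.223 with both arrays.

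**Figure D4:**
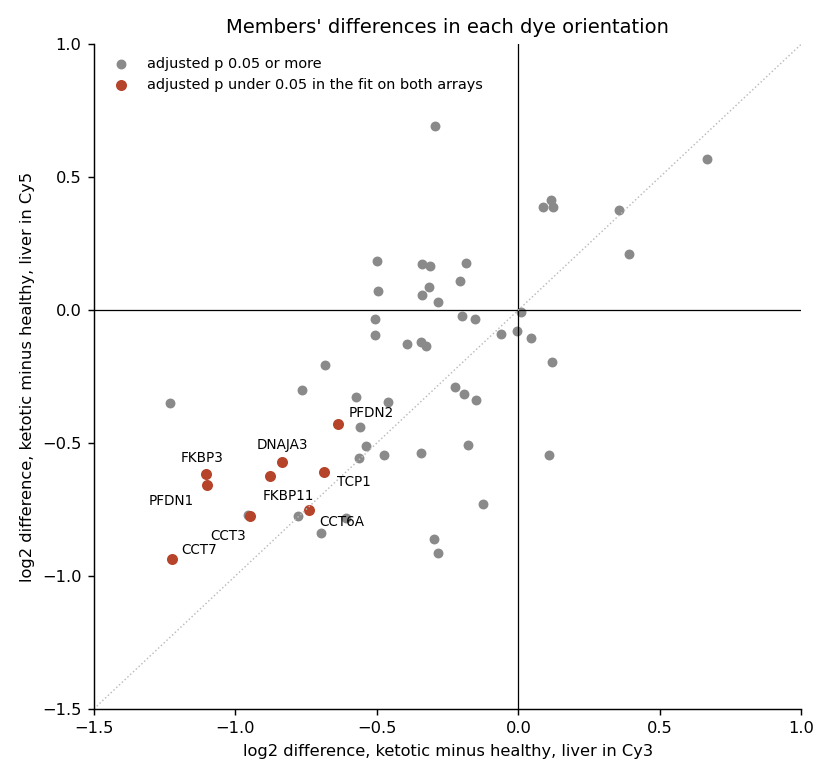
Log2 difference, ketotic minus healthy, of each of the 59 tested genes on the arrays with liver in Cy3 (horizontal axis) and in Cy5 (vertical axis); red marks the 9 genes with an adjusted p under 0.05 on both arrays together, and the dotted line is equality. The red points all lie in the lower left, and 14 points fall where the signs differ. The red genes were called on the mean of the arrays of both axes, so their place is not separate support.

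How many genes were called moved with the processing, as the plot of shares by setting shows. The count ran from 0 of 61 with Cy5 alone, against 0.105% of all genes lower, to 24 of 59 with the values as deposited, against 35.4%. As deposited, the median over all genes was itself -0.58. With arrays centred on the 7426 probes measured on every array, 7 of 59 were lower, against 7.09% of all genes. The median over all genes was then -0.05. CCT7 and PFDN1 were called in every setting tried except Cy5 alone.

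**Figure D5:**
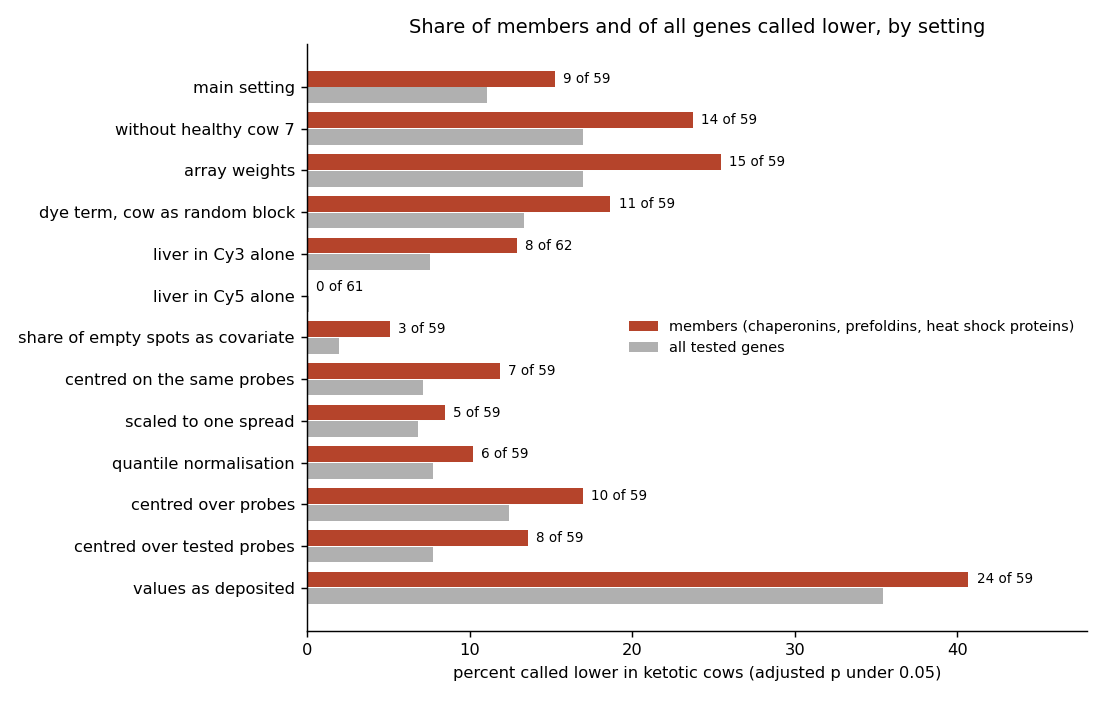
Percent called lower in ketotic cows (limma adjusted p under 0.05) among the folding genes (red) and all tested genes (grey), for 13 settings; numbers give the folding genes called of those tested. The red bar is longer than the grey one in every setting shown except Cy5 alone, where no folding gene was called, and both move together.

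Genes that work beside these were read from lists outside the symbol rule. For comparison with their counts, 11.1% of all genes were lower and 0.992% higher. Of 14 co-chaperones and heat shock regulators, 2 were lower in ketotic liver and none was higher: STIP1, which links HSP70 to HSP90, by -0.81 (SE 0.238, limma adjusted p = 0.0370), and AHSA1, which speeds the HSP90 ATPase, by -0.48 (SE 0.150, adjusted p = 0.0496). Of 19 clients of chaperonin and prefoldin and tubulin cofactors, 4 were lower and none was higher, among them TBCA, a cofactor that holds beta-tubulin, by -0.92 (SE 0.201, limma adjusted p = 0.0107), and GNB2, a G protein beta subunit, by -0.70 (SE 0.162, adjusted p = 0.0146). Of 12 mitochondrial chaperones and proteases, 2 were lower (AFG3L2 by -0.71 and PHB1 by -0.80), and HTRA2, a protease, was higher by 0.52 (SE 0.154, limma adjusted p = 0.0372).

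Of 13 cyclophilins and parvulins, the other prolyl isomerases, 3 were lower, against 11.1% of all genes, and none was higher. PPIH, a cyclophilin of the spliceosome, differed by -1.56 (SE 0.284, limma adjusted p = 0.00458), a larger difference than any of the 59 genes. PPIB, of the endoplasmic reticulum, differed by -0.64 (SE 0.162, limma adjusted p = 0.0206).

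Markers of cell types were read beside these results, where 11.1% of all genes were lower and 0.992% higher. Of 9 macrophage markers 4 were lower in ketotic liver, among them CD74 by -0.85 (SE 0.170, limma adjusted p = 0.00720), and the list's median per cow ran from -0.767 to -0.143 in ketotic cows, against -1.09 to 0.964 in healthy cows. Of 16 hepatocyte markers 2 were higher, APOA1 by 0.89 and ALB by 1.64 (limma adjusted p = 0.0200 and 0.0233), and none was lower. The list's median per cow ran from -0.399 to 0.868 in ketotic cows, against -2.69 to 1.08 in healthy cows. Its median log2 difference was 0.62, and 0.16 without healthy cow 7. Without that cow the same 2 were higher and 1, APOB, was lower (limma adjusted p = 0.0465), against 17.0% of all genes lower. Of 6 genes listed as bile duct markers only KRT8 was lower, by -0.97 (SE 0.215, limma adjusted p = 0.0114). KRT18, KRT19, EPCAM, SPP1 and CFTR were not called. Of 6 lymphocyte markers 1 was lower and 1 higher. None of 8 stellate cell, 7 muscle, 6 endothelial, 2 adipocyte and 1 red cell markers passed. With empty spots as a covariate, none of the lower calls of these marker lists and of the lists before them was left. The part of the markers in the folding genes was not tested.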

How the data were processed

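Each deposited value is a log2 ratio of the 2 dye channels of a spot; the steps by which the authors made and normalised the log2 values are not given in the sources used here. Empty cells (103458) and values at a ceiling of 16.61 (6245) were read as missing. The sign was turned on arrays that held liver in Cy3, and each array was centred on its median over spots, since the deposited medians ran from -1.05 to 2.16. Adjacent spots were then averaged to 13824 probes. Centring before averaging is the order written in the design. 2 other centrings were tried after seeing the data. Centring over probes after averaging (929 genes and 10 folding genes called) was taken as the main setting for a time, because its counts matched earlier results of these data; the written order (838 and 9) was then restored with both counts known. Centring over tested probes gave 643 and 8.

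Cows without both arrays of a probe counted as missing there, and at least 5 cows a group were required. A gene was the mean over its probes, each centred first. A single gene symbol was listed for 8645 probes, several for 105, which stayed unnamed, and none for 5074; symbols were updated through the ARS-UCD2.0 gene table, which held 8620. No coordinates are given, since the array's build is not named. Groups were compared with limma 3.58.1 in R 4.3.3 (lmFit and eBayes, 14 cows, two-sided, Benjamini-Hochberg over 6958 genes, threshold 0.05), tested first on simulated data. Figures were drawn with matplotlib 3.10.9.

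The genes, families and lists were chosen with earlier results of these data known. Named with values by cow were, in each family, up to 2 passing genes of smallest p or the 1 of smallest p where none passed, the 5 largest passing differences and any passing rise. DNAJB1, HSPB1, FKBP1A and the remaining chaperonin and prefoldin subunits were named after their values were seen, and other genes by range. The label fields of 1 ketotic array give the same dye for both channels, and those of 1 array of healthy cow 7 list the channels in the other order. Alternatives covered scaling, ceiling and zeros, the filter, dyes, model, weights, covariate, probe choice and each cow left out. The number of arrays limits the precision, and no hybridisation batch is given in the labels.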

Additional observations from a re-analysis of the deposited data

Results flagged for a closer look

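Values that lay far from the rest of their own group were looked for in 38 sets of cow values. Chance gives about 1.9, and 4 were found. The sets did not cover every tested gene, so the 4 are not a full list. The sets also share the same cows and are not independent. BAG6 was -1.35 in ketotic cow 5, against -0.739 for the nearest ketotic cow, and 0.864 in healthy cow 7, against -0.266 for the nearest healthy cow. HSPB2 was -0.484 in healthy cow 4, against -0.773 for the nearest healthy cow. The median correlation of healthy cow 7 with its group was 0.434, against 0.900 for the nearest. On its 2 arrays ALB, the albumin gene of hepatocytes, had log2 ratios of 7.61 and 6.50. ALB is only 1 of the 16 hepatocyte markers tested. The median difference of that list, ketotic minus healthy, was 0.62 with this cow and 0.16 without it. Genes that were not flagged also held far values. In healthy cow 7, FKBP4 was -2.29, against -0.26 for the nearest healthy cow, and DNAJC19 was -0.60, against 0.96. In ketotic cow 5, DNAJC8 was -3.70, against -2.10 for the nearest ketotic cow. Such values outside the flagged ones were not counted.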

How the results depend on the processing

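The number of folding genes called lower, 9, became 24 with the values as deposited and 5 with arrays scaled to one spread. It was 0 with Cy5 alone, 15 with array weights and 3 with empty spots as a covariate. The share of all genes lower, 11.1%, became 35.4%, 6.81%, 0.105%, 16.9% and 1.97% in the same order. The number of folding genes called higher, 0, became 1 with one spread, where 40 of 6958 genes were higher. Of all genes, 838 were called; the count was 2477 as deposited, 514 with one spread, 9 with Cy5 alone, 1333 with array weights and 145 with the covariate. Centred on the probes measured on every array, 493 genes were lower and 123 higher, against 769 and 69. The median over the folding genes, -0.26, was -0.69 as deposited. With 1 cow left out, the folding genes lower ranged from 7 to 14, those higher from 0 to 0, and their median from -0.33 to -0.22. All genes called ran from 536 (without healthy cow 6) to 1281 (without healthy cow 7). The share of all genes lower ran from 7.27% to 17.0% without the same cows. HSPE1 turned to -0.19 as deposited and -0.29 with Cy3 alone, HSPB2 to -0.12 as deposited, and HSPH1 to 0.024 without healthy cow 7, within a range of -0.52 to 0.024 over the cows left out. The cause of these changes was not tested. No paired analysis was possible because the labels pair no cows across groups.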
